A study of Mus musculus with 10 samples.

Results

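Mouse chromosome 11 was described through every 10 kb window that the deposited table places on it, which gave 12209 of 272566 windows. Of these, 7900 windows lay proximal to chr11:79000001 (nearer the centromere) and 4309 windows lay distal to it, in the stretch whose gene order corresponds to the long arm of human chromosome 17. The comparison set was the 218072 windows on the other autosomes, with chromosome 3 left out by the choice of regions. For tests the windows were summed in bins of 1 Mb, and 119 of 123 chromosome 11 bins held enough reads, 76 of them proximal and 43 distal, against 2115 bins of the other autosomes except 3.

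The libraries were shallow whole-genome DNA sequencing of mouse embryonic stem cells (mESCs), which are pluripotent cells taken from the blastocyst. All came from 2 independently derived male lines of the C57/Bl6 strain without a transgene or other allele named in the labels, kept in 2i/LIF medium, in which 2 kinase inhibitors and the cytokine LIF hold cells in a naive pluripotent state. The 5 groups, each of 2 libraries, were the cultures at the start (p0) and cultures after 10 or 20 passages (p10 and p20) in the Mulas2019 protocol, with splitting every 48 h, or in the Keniry2022 protocol, with daily splitting in suspension. Each line was split into both protocols at p0, so a replicate number stands for a line, with a doubt about p20 Keniry2022 given below. Both lines had been derived in the Keniry2022 way, which means that p0 was not naive to that protocol. Each group was therefore 1 culture of each of 2 lines, and no library came from single cells, so a share of cells with an altered chromosome and the size of the alteration cannot be told apart.

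Chromosome 11 is gene-dense and GC-rich, and gains of it, particularly of its distal part, are a known recurrent abnormality of cultured mESCs, as gains of 17q are of human pluripotent cells. It carries Stat3, which transmits the LIF signal that sustains naive pluripotency, and Trp53, which encodes the tumour suppressor p53. In whole-genome sequencing the number of reads from a region is proportional to its copy number, but it is also known to depend on base composition, since fragments rich in GC and fragments rich in AT are not recovered alike.

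Base composition is the feature along which the chromosome 11 values were found to be ordered, so 4 short sequences are shown from near its extremes. They are the centres of the 10 kb windows with the highest and the lowest GC content in either part. Only windows without an ambiguous base and without an exon over the bases shown were considered. They are 300 bases each from the plus strand of GRCm38 (mm10), with G and C in capitals. The first is chr11:4744851-4745150 in an intron of Cabp7 and holds 61.0% GC and 7 CpG sites. The second is chr11:27814851-27815150, outside any annotated gene, with 30.7% GC and 0 CpG sites. The third is chr11:119544851-119545150 in an intron of Nptx1, with 60.3% GC and 5 CpG sites, and the fourth is chr11:92624851-92625150, outside any annotated gene, with 33.3% GC and 1 CpG site.
Highest GC, proximal: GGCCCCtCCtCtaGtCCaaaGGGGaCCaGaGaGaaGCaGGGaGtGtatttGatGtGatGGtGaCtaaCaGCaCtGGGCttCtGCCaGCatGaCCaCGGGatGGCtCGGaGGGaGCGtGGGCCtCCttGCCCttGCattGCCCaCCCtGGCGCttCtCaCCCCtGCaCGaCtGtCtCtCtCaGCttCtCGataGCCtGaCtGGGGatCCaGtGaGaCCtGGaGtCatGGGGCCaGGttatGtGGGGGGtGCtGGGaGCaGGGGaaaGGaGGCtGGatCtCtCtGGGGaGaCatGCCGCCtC
Lowest GC, proximal: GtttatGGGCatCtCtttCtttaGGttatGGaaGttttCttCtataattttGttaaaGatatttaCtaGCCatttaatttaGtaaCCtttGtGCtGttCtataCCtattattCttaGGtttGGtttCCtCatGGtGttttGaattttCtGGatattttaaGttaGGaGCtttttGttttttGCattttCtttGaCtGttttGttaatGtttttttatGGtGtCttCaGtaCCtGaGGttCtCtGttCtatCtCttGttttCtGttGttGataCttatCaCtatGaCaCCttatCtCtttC
Highest GC, distal: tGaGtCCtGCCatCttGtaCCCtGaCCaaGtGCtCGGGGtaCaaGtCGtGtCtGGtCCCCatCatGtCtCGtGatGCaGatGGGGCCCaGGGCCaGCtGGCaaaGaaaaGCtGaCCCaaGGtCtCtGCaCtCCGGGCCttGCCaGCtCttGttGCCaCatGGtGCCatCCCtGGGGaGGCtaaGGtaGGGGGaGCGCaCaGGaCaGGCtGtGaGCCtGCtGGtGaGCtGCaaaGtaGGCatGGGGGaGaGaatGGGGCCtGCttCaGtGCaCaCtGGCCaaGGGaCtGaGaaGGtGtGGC
Lowest GC, distal: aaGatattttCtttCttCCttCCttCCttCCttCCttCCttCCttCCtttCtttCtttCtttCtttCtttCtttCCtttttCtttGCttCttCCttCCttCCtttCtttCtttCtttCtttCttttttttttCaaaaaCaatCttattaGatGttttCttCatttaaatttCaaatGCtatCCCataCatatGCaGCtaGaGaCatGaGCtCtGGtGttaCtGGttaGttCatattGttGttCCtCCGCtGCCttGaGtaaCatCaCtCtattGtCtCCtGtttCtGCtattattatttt

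In p10 Mulas2019, the AT-rich and the GC-rich windows around these sequences moved in opposite directions. The AT-rich distal window held 66 and 82 reads in the p0 libraries of replicates 1 and 2, 108 and 145 reads in p10 Mulas2019, 108 and 75 in p20 Mulas2019, 77 and 104 in p10 Keniry2022, and 75 and 78 in p20 Keniry2022. The GC-rich distal window, in Nptx1, a gene for a secreted synaptic protein, held 183 and 176 reads at p0, 117 and 132 in p10 Mulas2019, 178 and 131 in p20 Mulas2019, 194 and 138 in p10 Keniry2022, and 188 and 161 in p20 Keniry2022. Both p10 Mulas2019 libraries were thus above both p0 libraries in the AT-rich window and below them in the GC-rich window. On the CPM scale, the log2 ratio of p10 Mulas2019 to p0 of the same replicate was 0.87 and 0.62 in the AT-rich distal window and -0.48 and -0.62 in the GC-rich one. The proximal pair pointed the same way in p10 Mulas2019, with 84 and 143 reads against 59 and 67 at p0 in the AT-rich window, and with 135 and 147 against 170 and 193 in the GC-rich window in Cabp7, a gene for a calcium-binding protein. In the other groups the directions were mixed. In replicate 2 of p20 Mulas2019 all 4 windows lay below p0 of the same replicate on this scale, with -0.03 in the AT-rich distal window. A single window rests on few reads, so the sections that follow use sums over 1 Mb.

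Libraries held 27270648 to 35354358 reads, and no pair of libraries agreed within sampling noise. The share of reads on X was 2.24% to 2.73%. In all groups but one, replicate 1 held little Y (0.000356% to 0.00145% of reads) and replicate 2 held more (0.0377% to 0.0594%), whereas the p20 Keniry2022 library labelled replicate 1 held 0.0441% and the one labelled replicate 2 held 0.000673%. The replicate numbers of these 2 libraries are thus in doubt, so they are called by their labels here, and the tests were repeated with their numbers crossed.

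Chromosome 11 had the highest GC content of the 19 autosomes, 43.8% against 43.1% for chromosome 7, the next, and 41.9% for the other autosomes except 3. Its distal part was richer in GC than its proximal part (45.6% against 42.8%), and single bins ranged from 36.4% to 51.4%. It was gene-dense as well, with 1639 protein-coding genes or 13.8 per bin, against 8.46 per bin on the other autosomes. The proximal part held 864 of these genes in its 76 bins and the distal part 775 in its 43 bins. The median window held 154.4 reads as a mean over libraries, 147.4 in the proximal and 162.3 in the distal part, against 134.7 on the other autosomes.

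Reads on chromosome 11 made up 5.71% and 5.66% of all reads at p0, and fewer in p10 Mulas2019, at 5.23% and 5.19%. The shares were 5.48% and 5.39% in p20 Mulas2019, 5.56% and 5.45% in p10 Keniry2022, and 5.58% and 5.61% in p20 Keniry2022. All 8 later libraries lay below both p0 libraries, and the p10 Mulas2019 libraries lay lowest. Counting error was small beside these differences, as the 95% Wilson interval of the first share was 5.70% to 5.71% and covers counting error only. Most of the difference sat in the distal part, which fell from 2.26% and 2.22% of reads at p0 to 1.92% and 1.91% in p10 Mulas2019. The proximal part held 3.44% and 3.44% at p0 and 3.31% and 3.29% in p10 Mulas2019.

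The level of the chromosome was taken as the median log2 CPM of its bins minus the median over bins of the other autosomes except 3, where CPM is reads in the bin over all reads of the library, times 1e6. At p0 this level was 0.28 in replicate 1 and 0.25 in replicate 2. It was 0.09 and 0.09 in p10 Mulas2019, 0.18 and 0.17 in p20 Mulas2019, 0.22 and 0.18 in p10 Keniry2022, and 0.23 and 0.25 in p20 Keniry2022. Chromosome 11 had the highest level of the 19 autosomes in all 10 libraries, p0 included. The libraries of p10 Mulas2019 did not overlap with those of any other group, while the p20 Keniry2022 libraries overlapped with p0.

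The distal part carried the higher level and the wider spread. Its level was 0.39 and 0.37 at p0, 0.12 and 0.12 in p10 Mulas2019, 0.26 and 0.24 in p20 Mulas2019, 0.33 and 0.24 in p10 Keniry2022, and 0.35 and 0.35 in p20 Keniry2022. The proximal part went from 0.16 and 0.16 at p0 to 0.08 and 0.08 in p10 Mulas2019, with 0.11 to 0.16 in the other 6 libraries. The distal part was above the proximal part in every library, by 0.23 and 0.21 at p0 and by 0.04 and 0.03 in p10 Mulas2019.

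To set the level beside base composition, a smooth curve (loess) of log2 CPM on GC content was fitted in each library on the bins of the autosomes other than 3 and 11 and subtracted from all bins. Chromosome 11 itself had no part in that curve. After this GC correction the level of chromosome 11 was 0.016 to 0.028 in the 10 libraries, at rank 3 to 7 of the 19 autosomes. The proximal part then lay at 0.024 to 0.035 and the distal part at -0.006 to 0.015, so the distal part was no longer above the proximal part in any library.

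**Figure D1:**
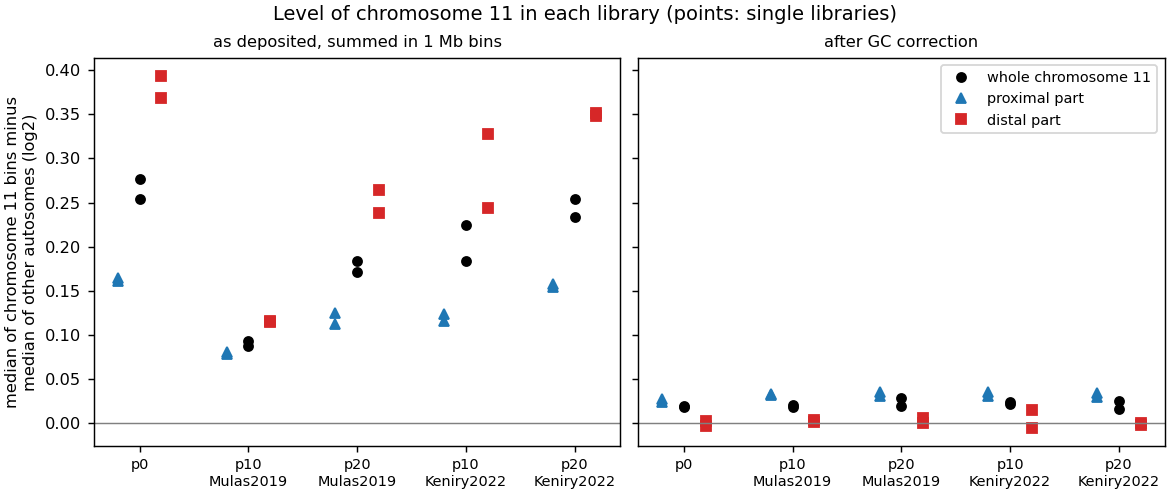
Level of chromosome 11 (log2, vertical axis) in each of the 10 libraries, as the median over its 1 Mb bins minus that of the other autosomes except 3, for the whole chromosome and for its proximal and distal parts, before and after GC correction. Each point is 1 library. Before correction the distal level ranged from 0.12 to 0.39, and after it from -0.006 to 0.015.

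The plot of levels by library shows the distal points above the whole-chromosome points in every library before correction and all series close to 0 after it. It also shows that the p0 libraries, which are the reference of 4 comparisons, had the highest distal levels.

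Whether either protocol changed the dose of chromosome 11 was asked by testing the shift of its level from p0. Chromosome 11 fell by 0.17 in p10 Mulas2019 (SE 0.0147, n = 2 against 2, limma adjusted p = 2.18e-05), by 0.09 in p20 Mulas2019 (adjusted p = 0.00157) and by 0.06 in p10 Keniry2022 (adjusted p = 0.0145). In p20 Keniry2022 the shift was -0.02 (limma adjusted p = 0.379). It was the lowest shift of the 19 autosomes in the first 3 comparisons, where chromosome 5 was next at -0.10, -0.07 and -0.05, and the second lowest in p20 Keniry2022. The test also passed for other chromosomes, as 80%, 65%, 40% and 0% of the 20 chromosomes tested were called in the 4 comparisons, in the same order. The 4 comparisons share the p0 libraries. The p10 Keniry2022 shift did not pass without the p0 library of replicate 1 (-0.05, limma adjusted p = 0.0862) or without the p10 Keniry2022 library of replicate 2 (-0.04, limma adjusted p = 0.0564).

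After GC correction no shift of chromosome 11 passed the test. The values were 0.0013 in p10 Mulas2019, 0.0055 in p20 Mulas2019, 0.0047 in p10 Keniry2022 and 0.0021 in p20 Keniry2022, with SE 0.00385 and limma adjusted p from 0.394 to 0.920 over the 4 comparisons, and 5% of the 20 chromosomes were called in each. An extra copy of the chromosome in every cell would raise its level by 0.58. The 95% intervals of the corrected shifts corresponded to an extra copy in -1.09% to 1.45% of cells in p10 Mulas2019, -0.507% to 2.04% in p20 Mulas2019, -0.621% to 1.93% in p10 Keniry2022 and -0.980% to 1.56% in p20 Keniry2022, where negative values stand for a lower dose than at p0. No shift of the whole chromosome above p0 passed the test in any group, with or without the correction, so the gain for which the chromosome is known was not seen here. The intervals cover the change from p0, and a gain already present at p0 in the same share of cells would not show in them.

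**Figure D2:**
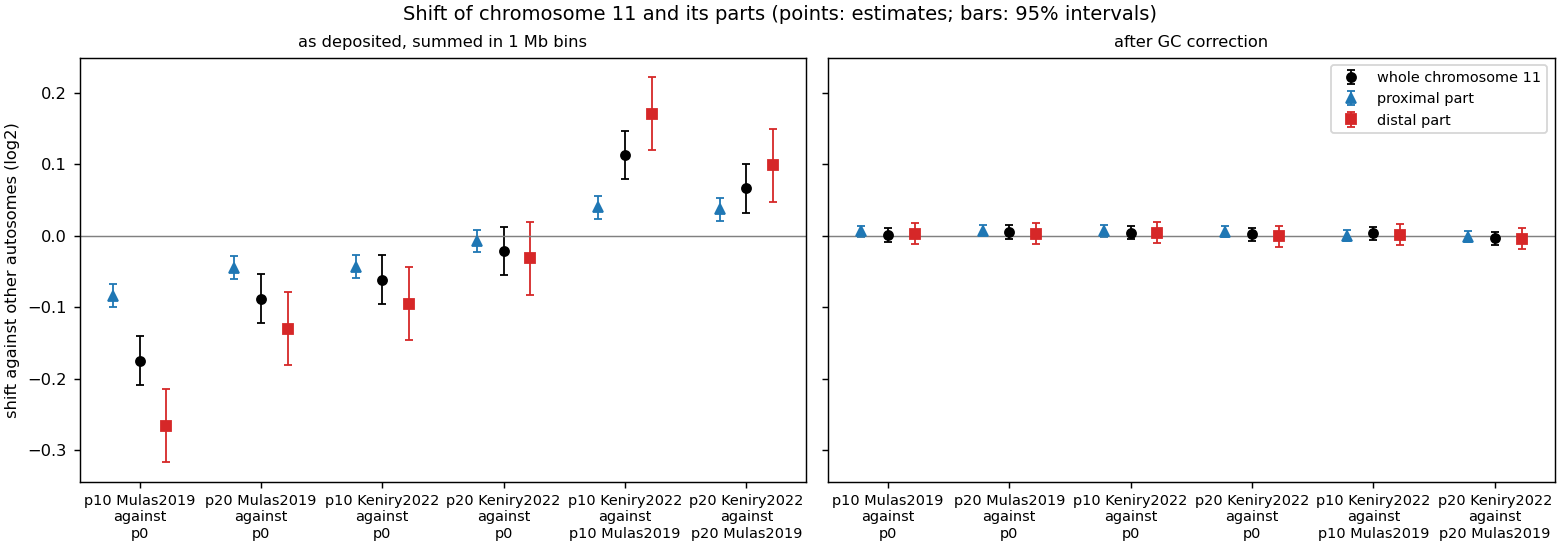
Shift of chromosome 11, its proximal part and its distal part against the other autosomes except 3 (log2, vertical axis) in the 6 comparisons, before GC correction (left) and after it (right). Points are limma estimates from 2 libraries in each group and bars are 95% intervals. On the left the distal shift of p10 Mulas2019 against p0 lies lowest at -0.27, and on the right all points lie near 0.

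The distal part moved more than the proximal part. Against p0 the distal part fell by 0.27 in p10 Mulas2019 (SE 0.0219, limma adjusted p = 5.89e-06), by 0.13 in p20 Mulas2019 (adjusted p = 0.000769) and by 0.09 in p10 Keniry2022 (adjusted p = 0.00446). The proximal part fell by 0.08 (SE 0.00683, limma adjusted p = 5.89e-06), 0.04 (adjusted p = 0.000504) and 0.04 (adjusted p = 0.000795) in the same order. The proximal direction depended on the boundary, as with a boundary after 60 Mb the proximal shift was 0.0235 in p10 Mulas2019 (limma adjusted p = 0.0317), 0.00074 in p20 Mulas2019 and -0.0084 in p10 Keniry2022. In p20 Keniry2022 the distal shift was -0.03 (limma adjusted p = 0.248) and the proximal shift was -0.01 (adjusted p = 0.405). Shifts of parts were common over the genome, as 97.5%, 90%, 72.5% and 27.5% of the 40 parts passed in these 4 comparisons. After GC correction the distal shifts were 0.0029, 0.0030, 0.0047 and -0.00075 and the proximal shifts 0.0067, 0.0073, 0.0067 and 0.0062, none of which passed (limma adjusted p from 0.241 to 0.995, against 20%, 2.5%, 2.5% and 7.5% of parts called). The difference itself, distal minus proximal, was -0.18 in p10 Mulas2019 (SE 0.0202, limma adjusted p = 2.85e-05), -0.09 in p20 Mulas2019 (adjusted p = 0.00375), -0.05 in p10 Keniry2022 (adjusted p = 0.0432) and -0.02 in p20 Keniry2022 (adjusted p = 0.278). The last of these passed with the boundary after 60 Mb, at -0.0475 (limma adjusted p = 0.00768), and as a mean over bins, at -0.0362 (adjusted p = 0.0119).

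Other chromosomes showed such contrasts too. When the other chromosomes were divided at the same fraction of their length, 90%, 80%, 80% and 15% of the 20 chromosomes passed the same test in these 4 comparisons. Chromosome 11 ranked 11, 12, 12 and 13 from the lowest of the 19 autosomes, with chromosome 4 lowest at -0.52 and chromosome 14 highest at 0.63 in p10 Mulas2019. After GC correction the distal minus proximal difference was -0.0038, -0.0043, -0.0020 and -0.0069 (SE 0.00763, limma adjusted p from 0.459 to 0.835), with 15%, 0%, 0% and 10% of chromosomes called. The uncorrected p10 Keniry2022 difference sat at the edge of the threshold and failed it on leaving out any single library other than the p10 Keniry2022 library of replicate 1, with values from -0.0888 to -0.0147 over the 10 omissions. That difference also did not pass without the replicate block, with the p20 Keniry2022 numbers crossed, or without a filter on low bins.

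Single bins were called where limma with a minimum change of 1.1-fold (TREAT) gave an adjusted p under 0.05 over all 2541 bins. In p10 Mulas2019 against p0, 74 of 119 chromosome 11 bins were called (62.2%), near the 58.8% of all bins. The balance of directions was different on chromosome 11, with 17 bins higher and 57 lower, against 33.1% higher and 25.7% lower over all bins. The distal part held 30 lower and 2 higher bins of 43, and the proximal part held 27 lower and 15 higher bins of 76. The 17 higher bins had 36.4% to 39.7% GC, a range that held 18 chromosome 11 bins in all. The 57 lower bins had 43.0% to 51.4% GC, a range that held 73. In the proximal part the calls were a complete partition by GC content, in that all 15 bins from 36.4% to 39.7% were higher and all 27 bins from 44.2% to 49.0% were lower.

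Without a minimum change most bins passed, 111 of 119 against 89.3% of all bins. The other comparisons against p0 called few chromosome 11 bins or none. In p20 Mulas2019 against p0, 7 bins were called (5.88%, against 8.85% of all bins), all of them higher (8.7% of all bins were higher and 0.157% lower) and of 36.4% to 37.9% GC, and the count was 0 without either p0 library or without the p20 Mulas2019 library of replicate 2. In p10 Keniry2022 against p0, 3 bins were called (2.52%, against 4.05%), all proximal and higher. This count was 0 with the p20 Keniry2022 numbers crossed or without the replicate block, 7 with a fixed block, 0 without either p0 library or without the p10 Keniry2022 library of replicate 2, and 5 to 8 without p10 Keniry2022 replicate 1, p10 Mulas2019 replicate 1 or either p20 Keniry2022 library. In p20 Keniry2022 against p0, limma TREAT called 0 bins of chromosome 11 and 0% of all bins, and 15 chromosome 11 bins passed the limma test without a minimum change, against 17.4% of all bins. The same test without a minimum passed 103 chromosome 11 bins in p20 Mulas2019 and 93 in p10 Keniry2022, against 80.6% and 73.4% of all bins. After GC correction 0 of 119 chromosome 11 bins were called in each of these 4 comparisons, against 0.0394% of all bins in p10 Mulas2019 and 0% in the other 3. Without a minimum change, 19 corrected bins passed in p10 Mulas2019 (13 proximal and 6 distal, against 14.4% of all bins) and 0 in the other 3, against 0.394%, 0.0787% and 0% of all bins. In p10 Mulas2019, 12 of these bins were higher and 7 lower, against 8.82% and 5.55% of all bins, with 11 of the 13 proximal bins higher and 5 of the 6 distal bins lower. The lowest was chr11:107000001-108000000 in the distal part, at -0.07 (limma adjusted p = 0.0061), which was also the chromosome's sole corrected bin to pass without a minimum in p20 against p10 Mulas2019, at 0.07 (limma adjusted p = 0.0377, against 0.512% of all bins).

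Change and GC content were tied along the chromosome. In p10 Mulas2019 the log2 ratio of a bin to p0 of the same replicate had a slope of -0.0691 and -0.0657 per percentage point of GC over the 119 bins, and Pearson's r was -0.962 and -0.926. The slope was shallower in the distal part, at -0.0558 and -0.0480, than in the proximal part, at -0.0772 and -0.0776, and this order held in each of the 8 later libraries, a difference that was not tested. The slopes were -0.0315 and -0.0314 in p20 Mulas2019, -0.0226 and -0.0306 in p10 Keniry2022, and -0.0111 and -0.00844 in the libraries labelled p20 Keniry2022, while the ratio of one p0 library to the other had a slope of -0.00539. With the p20 Keniry2022 numbers crossed the slopes were -0.00573 and -0.0138, the first of them close to that between the p0 libraries. The slope was steepest in p10 Mulas2019 and, with either numbering, shallowest in p20 Keniry2022. Bins of a library share its depth and its preparation, so these are descriptions with no test, and what made the slopes differ between libraries was not tested. The other autosomes had slopes of -0.0757 and -0.0769 in p10 Mulas2019.

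**Figure D3:**
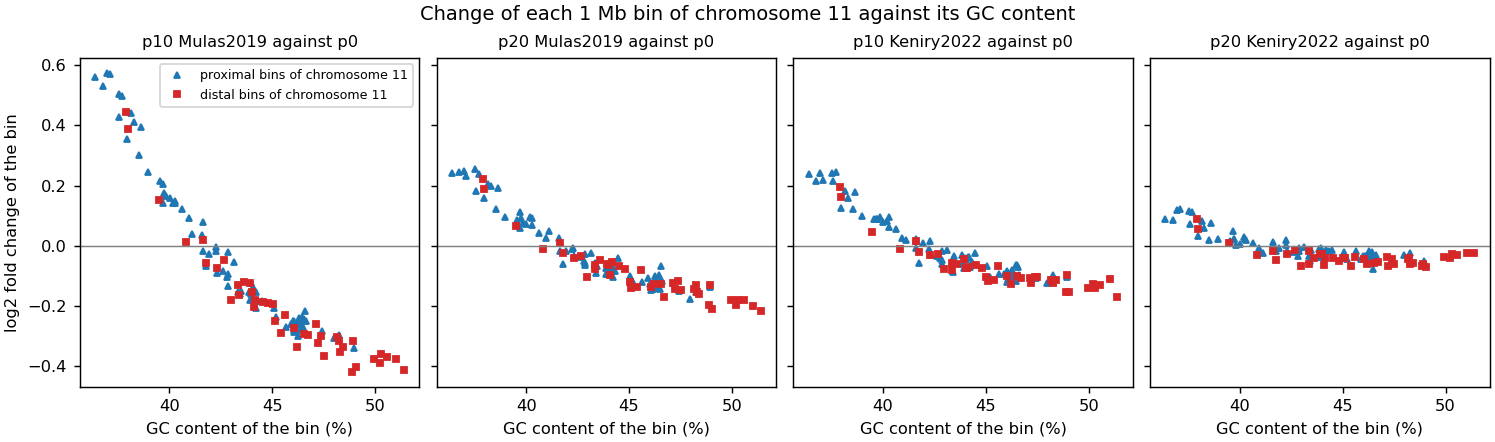
Log2 fold change against p0 (vertical axis) of each 1 Mb bin of chromosome 11 against its GC content in percent (horizontal axis), in 4 panels for p10 Mulas2019, p20 Mulas2019, p10 Keniry2022 and p20 Keniry2022. Each point is 1 bin, with proximal bins as triangles and distal bins as squares. The bins fall with GC content most steeply in p10 Mulas2019, where the slope is shallower in distal than in proximal bins.

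The plot of change against GC content shows proximal and distal bins overlapping, with the distal bins reaching further to the GC-rich side. In p10 Mulas2019, bins under 40% GC lay 0.40 and 0.44 above the reference in the proximal part (18 bins) and 0.39 and 0.42 in the distal part (3 bins). Bins of 44% to 46% GC lay at -0.19 and -0.16 in the proximal part (10 bins) and at -0.18 and -0.17 in the distal part (9 bins). In the class of 42% to 44% GC the proximal bins lay at -0.09 and -0.10 and the distal bins at -0.12 and -0.09, so the order differed between replicates. The distal bins lay lower in the remaining classes that hold both parts, with 0.01 and 0.05 in 3 distal bins of 40% to 42% GC against 0.09 and 0.12 in 12 proximal bins, and with -0.33 and -0.25 in 8 distal bins of 46% to 48% GC against -0.26 and -0.23 in 18 proximal bins, and with -0.36 and -0.29 in 8 distal bins of 48% to 50% GC against -0.35 and -0.25 in 2 proximal bins. These differences between the parts within a class were not tested. In the class of 46% to 48% GC, 26 chromosome 11 bins lay at -0.27 and -0.23 and the other autosomes at -0.30 and -0.25, and at 50% GC or more, 5 chromosome 11 bins, all distal, lay at -0.41 and -0.31 and 34 other bins at -0.43 and -0.33.

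The subtraction of the GC curve removed most of the spread among chromosome 11 bins. The SD of the log2 ratio over the 119 bins went from 0.256 and 0.253 to 0.0345 and 0.0382 in p10 Mulas2019, and from 0.0478 and 0.0443 to 0.0222 and 0.0214 in p20 Keniry2022. The ratio of the p0 libraries to each other, which holds no passage, had an SD of 0.0295 before and 0.0203 after the correction. The number of protein-coding genes in a bin moved with its change as well, with r = -0.575 and -0.527 in p10 Mulas2019, and with r = 0.125 and 0.246 after GC correction.

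The bins at the ends of the GC range show the same in single values. The bin with the lowest GC content, chr11:39000001-40000000 (36.4% GC, 0 protein-coding genes), had a log2 CPM of 7.89 and 7.83 at p0, 8.38 and 8.46 in p10 Mulas2019, 8.09 and 8.12 in p20 Mulas2019, 8.07 and 8.14 in p10 Keniry2022, and 7.93 and 7.98 in p20 Keniry2022. Its log2 fold change in p10 Mulas2019 was 0.56. The bin with the highest GC content, chr11:118000001-119000000 (51.4% GC, 11 protein-coding genes), had 9.28 and 9.23 at p0, 8.83 and 8.85 in p10 Mulas2019, 9.08 and 8.99 in p20 Mulas2019, 9.13 and 9.04 in p10 Keniry2022, and 9.24 and 9.22 in p20 Keniry2022. Its log2 fold change in p10 Mulas2019 was -0.41. In both bins the p10 Mulas2019 libraries lay outside the range of all other groups.

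The other bins of extreme composition did likewise. The second most AT-rich proximal bin, chr11:38000001-39000000 at 36.8% GC, had log2 fold changes of 0.53, 0.25, 0.22 and 0.09 in p10 Mulas2019, p20 Mulas2019, p10 Keniry2022 and p20 Keniry2022. The AT-rich distal bins, chr11:92000001-93000000 at 37.9% GC and chr11:91000001-92000000 at 38.0% GC, had 0.45 and 0.39 in p10 Mulas2019 and 0.09 and 0.06 in p20 Keniry2022. They stand in a gene-poor stretch within the distal part, and the second holds Kif2b, a kinesin gene. After GC correction they had 0.04 and -0.02 in p10 Mulas2019, and neither was called by limma TREAT. The GC-rich bins chr11:120000001-121000000 (51.0% GC, 47 genes), chr11:69000001-70000000 (49.0% GC, 65 genes) and chr11:59000001-60000000 (48.3% GC, 24 genes) had -0.38, -0.34 and -0.30 in p10 Mulas2019, and -0.03, -0.05 and -0.02 in p20 Keniry2022.

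By size of change, the bin that rose most in p10 Mulas2019 was chr11:15000001-16000000 (37.0% GC), with a log2 fold change of 0.57 before and 0.05 after GC correction. The bin that fell most was chr11:114000001-115000000 (48.9% GC), which holds Rpl38, a gene for a ribosomal protein, with -0.42 before and -0.07 after. In p20 Mulas2019 the extremes were chr11:41000001-42000000 at 0.26 and chr11:118000001-119000000 at -0.22. In p10 Keniry2022 they were chr11:13000001-14000000 at 0.25 and again chr11:118000001-119000000, at -0.17. In p20 Keniry2022 they were chr11:14000001-15000000 at 0.12 and chr11:70000001-71000000 at -0.08, neither of which passed the limma TREAT test.

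**Figure D4:**
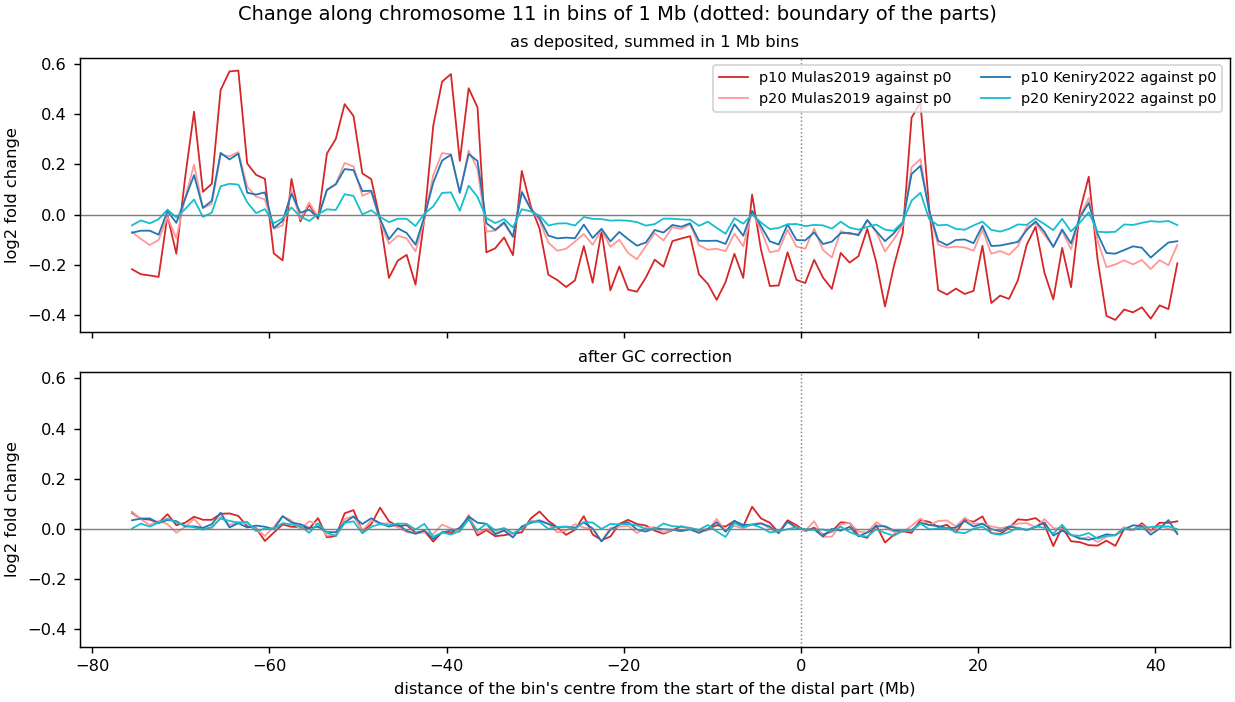
Log2 fold change against p0 (vertical axis) along chromosome 11, by distance in Mb from the start of the distal part (horizontal axis), in the 4 comparisons against p0, before and after GC correction. Before correction the p10 Mulas2019 values run from 0.57 to -0.42, and after it no bin of the 119 passed the limma TREAT test.

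The plot along the chromosome shows blocks of several Mb that rose or fell together before correction. Over runs of 5 bins, the highest median ratio in p10 Mulas2019 was 0.48 and 0.56, at chr11:37000001-42000000 in both replicates, and the lowest was -0.44 at chr11:111000001-116000000 in replicate 1 and -0.34 at chr11:114000001-119000000 in replicate 2. After GC correction the running medians of all 8 later libraries stayed between -0.066 and 0.073, inside the range of the 17 other autosomes used as reference.

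A distal stretch of 6 neighbouring bins lay below p0 after correction. It is chr11:109000001-115000000, from 30 to 36 Mb past the boundary, with 39 protein-coding genes, and it was picked after the values were seen, so it has no test of its own. Log2 CPM minus the GC curve is given here, without subtracting the median of the other autosomes, so these are not levels as defined above. Over the 6 bins its median was 0.054 and 0.060 at p0, -0.001 and 0.012 in p10 Mulas2019, and 0.036 and 0.029 in p20 Mulas2019. It was 0.028 and 0.029 in p10 Keniry2022 and 0.026 and 0.038 in p20 Keniry2022. The median of the other distal bins was 0.033 to 0.053 over all libraries. All 6 bins lay below p0 in each of the 4 comparisons, which share the p0 libraries, with median log2 fold changes of -0.06, -0.03, -0.03 and -0.03.

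The protocols were compared at equal passage to ask whether the shift differed between them. Chromosome 11 was higher in p10 Keniry2022 than in p10 Mulas2019 by 0.11 (SE 0.0147, limma adjusted p = 0.000477) and in p20 Keniry2022 than in p20 Mulas2019 by 0.07 (adjusted p = 0.00713), the highest difference of the 19 autosomes at both passages. Over the 20 chromosomes, 70% and 50% passed. The distal part was higher by 0.17 and 0.10 (limma adjusted p = 0.000174 and 0.00488), the proximal part by 0.04 and 0.04 (adjusted p = 0.000752 and 0.00309), and 87.5% and 75% of the 40 parts passed. With the boundary after 60 Mb the proximal difference turned to -0.0320 at p10 (limma adjusted p = 0.00904) and was 0.0176 at p20 (adjusted p = 0.104). Distal minus proximal differed by 0.13 at p10 (limma adjusted p = 0.000312, 90% of chromosomes called) and by 0.06 at p20 (adjusted p = 0.0196, 85% called). The p20 value did not pass without either p20 Mulas2019 library or without the p20 Keniry2022 library labelled replicate 2, at 0.0515 to 0.0636.

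At p10, 33 of 119 chromosome 11 bins differed between the protocols (27.7%, against 29.4% of all bins), with 20 higher in Keniry2022 (8.11% of all bins were) and 13 lower (21.3% were). The 20 higher bins, 16 of them distal, had 46.1% to 51.4% GC, and the 13 lower bins, 11 of them proximal, had 36.4% to 38.6% GC. The count ranged from 11 to 48 when 1 library was left out, being lowest without the p10 Keniry2022 library of replicate 1 and 20 without the p10 Mulas2019 library of replicate 1. At p20 limma TREAT called 0 bins of chromosome 11 (0% of all bins), and 80 bins passed without a minimum change, against 63.7% of all bins, as did 104 bins at p10, against 81.7%. After GC correction the whole-chromosome differences were 0.0034 at p10 and -0.0034 at p20 (limma adjusted p = 0.627 and 0.601, with 10% and 0% of chromosomes called), distal minus proximal was 0.0018 and -0.0026 (adjusted p = 0.961 and 0.905), and limma TREAT called 0 bins at either passage. Without a minimum change 0 corrected bins of chromosome 11 passed at either passage, against 0.551% of all bins at p10 and 0% at p20.

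Because the protocols split cells at different intervals, p20 Keniry2022 and p10 Mulas2019 both lie 20 days past p0. At this matched time chromosome 11 was higher in Keniry2022 by 0.15 (limma adjusted p = 5.60e-05, 80% of chromosomes called). Within Mulas2019 the chromosome was higher at p20 than at p10 by 0.09 (limma adjusted p = 0.00212, 75% called). Within Keniry2022 the difference of p20 from p10 was 0.04 (limma adjusted p = 0.0769, 0% called), although the proximal part was higher at p20 by 0.04 (adjusted p = 0.00533) and the distal part by 0.06 (adjusted p = 0.0429, or 0.0694 without the replicate block), where 55% of parts were called. None of the 3 passed after GC correction, with 0.00079 at the matched time (limma adjusted p = 0.887), 0.0042 within Mulas2019 (adjusted p = 0.477) and -0.0026 within Keniry2022 (adjusted p = 0.613). These contrasts were added after the other results were known.

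Chromosome 11 carries genes for several processes that matter to mESCs, and 41 of them in 5 groups were followed through the 1 Mb bin that holds the start of each gene. They fell in 21 bins and 30 of the genes were distal, so genes that share a bin share its value. The values are those of read coverage around the gene, not of its expression. Coverage followed GC content, so before GC correction the values do not give copy number alone. In p10 Mulas2019 against p0, 32 loci lay in lower bins and 1 in a higher bin, with a median log2 fold change of -0.29 against -0.16 over all chromosome 11 bins. These counts stand beside 25.7% lower and 33.1% higher over all bins, 47.9% lower over chromosome 11 bins and 69.8% lower over distal bins, and most of the loci were distal. In the other 3 comparisons against p0, 0 loci lay in bins called by limma TREAT. After GC correction 0 loci lay in called bins in any comparison, and their log2 fold changes in p10 Mulas2019 were -0.07 to 0.05.

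All 7 loci of LIF and STAT signalling lay in lower bins in p10 Mulas2019, of which there were 4, against 25.7% lower over all bins and 69.8% over distal bins. Stat3 (chr11:100885098-100939540), which carries the LIF signal to the nucleus, shares a bin of 48.3% GC with its relatives Stat5a and Stat5b. The log2 CPM of this bin was 9.22 and 9.19 at p0, 8.86 and 8.85 in p10 Mulas2019, 9.08 and 9.03 in p20 Mulas2019, 9.12 and 9.04 in p10 Keniry2022, and 9.14 and 9.15 in p20 Keniry2022. The p10 Mulas2019 libraries were the lowest and all later libraries lay below p0. The log2 fold change in p10 Mulas2019 was -0.35 (SE 0.0248, limma adjusted p = 5.85e-06) and -0.02 after GC correction.

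Lif itself (chr11:4257557-4272514) lies in the proximal part together with Osm, which encodes a cytokine of the same family, and Nf2, a tumour suppressor gene of the Hippo pathway. Their bin had 9.17 and 9.14 at p0, 8.92 and 8.92 in p10 Mulas2019, 9.08 and 9.04 in p20 Mulas2019, 9.12 and 9.06 in p10 Keniry2022, and 9.13 and 9.14 in p20 Keniry2022, on the log2 CPM scale. Its log2 fold change in p10 Mulas2019 was -0.24 (SE 0.0207, limma adjusted p = 0.000563). The bins of Grb2, which encodes an adaptor between receptors and Ras, and of Socs3, which encodes a feedback inhibitor of STAT signalling, had -0.38 and -0.37. At p10, 5 of the 7 loci, all 5 distal, lay in bins higher in Keniry2022 than in Mulas2019. In that comparison 8.11% of all bins and 16 of 43 distal bins were higher. The bin of Lif and Osm did not pass (0.17, limma adjusted p = 0.154).

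Of the 10 loci of p53, genome upkeep and the cell cycle, 7 lay in lower bins in p10 Mulas2019, with 8 of the 10 loci distal and 69.8% of distal bins lower. Trp53 (chr11:69580359-69591873) shares the gene-rich bin of 49.0% GC with Aurkb, which encodes a mitotic kinase. That bin had a log2 CPM of 9.21 and 9.15 at p0, 8.84 and 8.84 in p10 Mulas2019, 9.08 and 9.0 in p20 Mulas2019, 9.11 and 9.03 in p10 Keniry2022, and 9.12 and 9.13 in p20 Keniry2022. The log2 fold change was -0.34 in p10 Mulas2019 (limma adjusted p = 2.32e-05) and 0.01 after GC correction. The bin of Birc5, an inhibitor of apoptosis, and Tk1, a thymidine kinase, had -0.37, that of the DNA repair gene Brca1 had -0.32, that of the replication licensing gene Cdc6 had -0.30 and that of the repair gene Rad51c had -0.19. The 3 loci that did not pass were Brip1, which encodes a helicase partner of BRCA1 (-0.06), Ppm1d, a phosphatase gene of the p53 response (-0.17), and Top2a, a topoisomerase gene (-0.12).

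Among 10 growth control loci, 6 lay in lower bins and Egfr, the gene of the epidermal growth factor receptor (chr11:16752203-16918158), lay in the single higher bin, against 25.7% lower and 33.1% higher over all bins. Of these 10 loci 5 were distal. On chromosome 11, 57 of 119 bins were lower, with 30 of 43 in the distal and 27 of 76 in the proximal part. The Egfr bin, at 39.7% GC, had a log2 CPM of 8.43 and 8.44 at p0, 8.63 and 8.64 in p10 Mulas2019, 8.54 and 8.55 in p20 Mulas2019, 8.49 and 8.55 in p10 Keniry2022, and 8.48 and 8.48 in p20 Keniry2022. Its log2 fold change in p10 Mulas2019 was 0.20 (limma adjusted p = 0.00402). The lower bins were those of Rptor (-0.36), a subunit gene of mTORC1, Erbb2 (-0.30), a receptor kinase gene, Flcn (-0.30), a tumour suppressor gene, Igf2bp1 (-0.29), a gene for an RNA-binding protein, Nf1 (-0.27), which encodes a brake on Ras, and Nf2. The bins of Rel (0.04), Map2k4 (-0.09) and Rps6kb1 (-0.06) did not pass.

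Of 10 loci of the Wnt pathway and development, 8 lay in lower bins in p10 Mulas2019, with the 10 loci in 7 bins, 8 of the loci distal and 69.8% of distal bins lower. These were the ligand genes Wnt3a and Wnt9a (-0.30) and Wnt3 and Wnt9b (-0.26), Rnf43 (-0.19), which encodes a ubiquitin ligase that removes Wnt receptors, the Hoxb1 and Hoxb13 loci (-0.29), and Sox9 (-0.18, limma adjusted p = 0.0227). The bins of Axin2, a feedback inhibitor (-0.13), and Tbx2, a T-box factor gene (-0.17), did not pass. The Sox9 bin is 1 of the 6 of the distal stretch described above, and its log2 fold change after GC correction was -0.07. All 4 Polycomb loci, distal and in 3 bins, lay in lower bins, against 69.8% of distal bins and 25.7% of all bins, namely Suz12 (-0.27), Ezh1 (-0.32) and the neighbours Cbx2 and Cbx8 (-0.36), which encode subunits of the complexes that hold developmental genes silent.

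**Figure D5:**
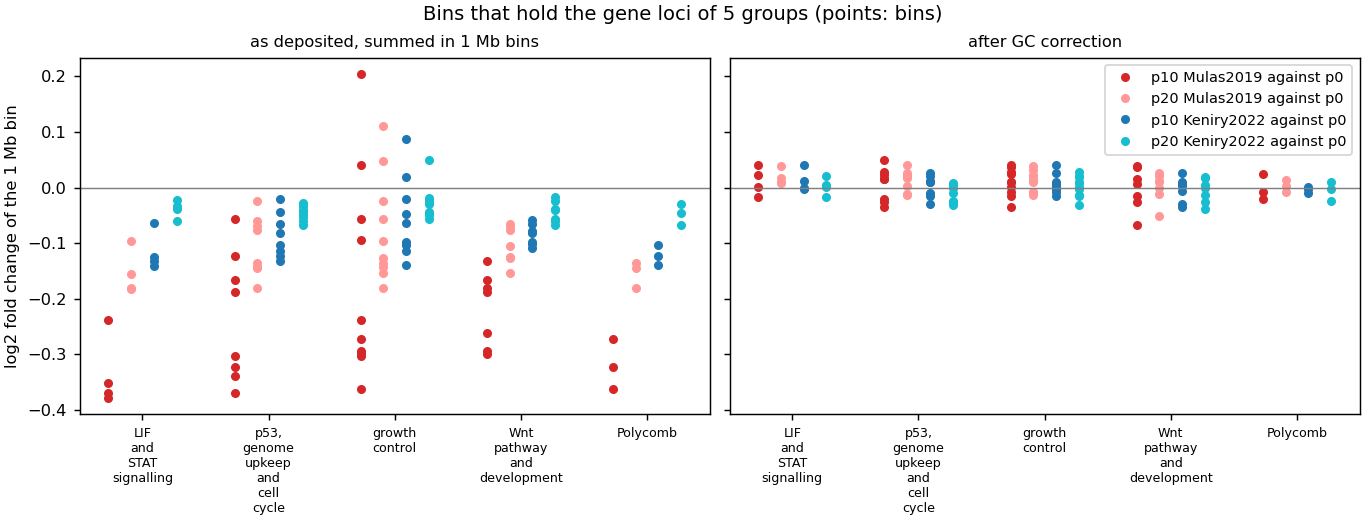
Log2 fold change against p0 (in the 4 comparisons) of the 1 Mb bins that hold the 41 loci of the 5 gene groups, before and after GC correction. Before correction 32 loci lay in lower bins and Egfr in a higher bin in p10 Mulas2019, and after it their values in that comparison lay between -0.07 and 0.05.

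The plot of gene loci shows the groups side by side, from -0.38 to 0.20 before the correction in p10 Mulas2019 and from -0.07 to 0.05 after it. At p10 the numbers of loci in bins higher in Keniry2022 than in Mulas2019 were 5 of 7 for LIF and STAT signalling, 5 of 10 for p53 and the cell cycle, 2 of 10 for growth control, 2 of 10 for Wnt and development and 3 of 4 for Polycomb. Over all bins 8.11% were higher, over chromosome 11 bins 16.8% and over distal bins 37.2%.

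A last feature of the chromosome was common to all libraries. The adjoining windows chr11:3190001-3200000 and chr11:3180001-3190000, which overlap Sfi1 and Drg1, held 37.7-fold and 21.8-fold the reads of the median chromosome 11 window. The first held 164 to 193 CPM and the second 97.2 to 112 CPM over the 10 libraries. Together they took 0.502% to 0.551% of the reads of the chromosome, and the next window in order, chr11:54140001-54150000, held 2.40-fold. Of the windows with no read in any library, 335 in all, 333 hold no known base in the reference and 2 do.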

How the data were processed

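DNA was extracted with a Zymo kit and made into Illumina TruSeq libraries. The submitters' processing notes name bcl2fastq (base calls to reads), Bowtie2 (mapping) and the build mm10, with no version of either tool. The authors deposited 1 table of log2 values in windows of 10 kb over the genome, whereas the methods describe 1 Mb bins counted with GenomicAlignments, and for the 10 kb windows a counting tool is not stated. From the values, each log2 value was a whole number of reads scaled to the largest library total, with 0.9 reads for windows without a read. Dividing by that scale gave whole reads, within 0.1 of a read, at 100.0% of values. Scaled to CPM and summed in 1 Mb bins, 2541 of 2737 bins passed a minimum mean CPM of 0.1 of the median bin. The 2 mitochondrial windows were left out. Window ends matched the GRCm38 lengths of 21 chromosomes, and GC content and genes were taken from that build.

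Log2 CPM was tested in limma (trended prior), with a minimum fold change of 1.1 (TREAT) and Benjamini-Hochberg adjustment over all bins at 0.05. Chromosome shifts (20 chromosomes), shifts of parts (40 parts, the other chromosomes being divided at 64.7% of their length) and distal minus proximal differences (20 chromosomes) were tested with limma without a minimum. One model held all 10 libraries in 5 groups, and the line was its random block, as the methods have it. The pairing comes from the study, in which each line was split at p0, and the estimated correlation within a line was 0.132 for bins (-0.067 after GC correction), and -0.026, 0.157 and 0.190 for shifts of chromosomes, shifts of parts and differences (-0.130, 0.027 and 0.107 after GC correction). The GC correction was a loess curve with span 0.3. The TREAT calls of bins before GC correction and the shift of the whole chromosome were checked on simulated data without a line effect. The other tests were not checked in this way. Alternatives were voom on recovered reads, no minimum change, GC correction, no or a fixed replicate block, crossed p20 Keniry2022 numbers, 0.5 Mb bins, other filters on low bins, a mean over bins, all autosomes as reference, a boundary after 60 Mb and leaving out each library. P-values rest on the spread between libraries of a group, pooled over the 5 groups with the line as a block and moderated across the features tested. Wilson intervals cover counting error only. Programs were Python 3.11.15 (numpy 2.4.6, pandas 2.3.3, scipy 1.17.1, matplotlib 3.10.9) and R 4.3.3 (limma 3.58.1, statmod 1.5.0).

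The region, the gene lists and the tests were chosen with earlier results of these data known. Bins were named by rule, as the 2 of highest and the 2 of lowest GC content in each part and the largest positive and negative change against p0 in each comparison, and sequences as those of extreme GC content among windows without an ambiguous base and without an exon over the 300 bases shown. The windows with the most reads were named as well. One locus of the gene lists is not reported here.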

Additional observations from a re-analysis of the deposited data

Results flagged for a closer look

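The difference between the protocols was itself tested, and 8 of its values for chromosome 11 passed limma at an adjusted p under 0.05 before GC correction. Keniry2022 was above Mulas2019 for the whole chromosome by 0.113 at p10 and 0.0666 at p20, for the proximal part by 0.0402 at p10 and 0.0371 at p20, and for the distal part by 0.171 at p10 and 0.0986 at p20. Distal minus proximal was higher by 0.131 at p10 and 0.0614 at p20. The GC slope of the bins differed between the same libraries, and none of the 8 differences passed after GC correction. What set the GC slopes was not tested.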

How the results depend on the processing

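GC correction changed the most. With it, and equally with it and a fixed replicate block for the cell line, the bins called went to 0 in p10 Mulas2019, p20 Mulas2019 and p10 Keniry2022 against p0 and in Keniry2022 against Mulas2019 at p10. The chromosome shift became 0.0013, 0.0055 and 0.0047 in the 3 comparisons against p0 and 0.0034 and -0.0034 between protocols at p10 and p20, the distal shift 0.0029, 0.0030 and 0.0047, the proximal shift 0.0067, 0.0073 and 0.0067, and the distal minus proximal difference -0.0038, -0.0043 and -0.0020, with 0.0018 and -0.0026 between protocols. Under both settings p20 Keniry2022 against p20 Mulas2019 gave -0.0037 for the distal and -0.0011 for the proximal part, p20 against p10 Keniry2022 gave -0.0055 and -0.00057, and p20 Keniry2022 against p10 Mulas2019 gave -0.0036 and -0.00054, with -0.0031 for distal minus proximal, which was -0.00046 for p20 against p10 Mulas2019. Corrected values with each library left out in turn, a setting added after seeing the data, passed the test in 0 cases.

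Small counts and values near the threshold also changed with the replicate block. Bins called in p10 Keniry2022 were 7 with a fixed replicate block, 0 without it and 0 with the p20 Keniry2022 numbers crossed, and those in p20 Mulas2019 were 4 without it. The p10 Keniry2022 distal minus proximal difference kept its value of -0.0517 but did not pass without the replicate block, with the numbers crossed, or without a filter on low bins. The distal shift of p20 against p10 Keniry2022, 0.0634, also did not pass without the replicate block (limma adjusted p = 0.0694), and no other call of a shift or difference changed with it.

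Bins called in p10 Keniry2022 were 0 with voom and 0 with bins from 0.5 of the median bin. With bins of 0.5 Mb, 158, 13 and 63 chromosome 11 bins were called in p10 Mulas2019, p20 Mulas2019 and between protocols at p10, since there are more bins. Without a minimum change 103, 93 and 15 bins were called in p20 Mulas2019, p10 Keniry2022 and p20 Keniry2022, and 104 and 80 between protocols at p10 and p20. With the boundary after 60 Mb, the p20 Keniry2022 distal minus proximal difference passed at -0.0475, as it did with a mean over bins at -0.0362, and the proximal shift turned to 0.0235 in p10 Mulas2019 and 0.00074 in p20 Mulas2019, to -0.0320 between protocols at p10, to -0.0052 for p20 Keniry2022 against p10 Mulas2019 and to -0.0228 for p20 against p10 Mulas2019.

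With 1 library left out, bins called ranged from 0 to 7 in p20 Mulas2019, from 0 to 8 in p10 Keniry2022 and from 11 to 48 between protocols at p10. The p10 Keniry2022 shift ranged from -0.0818 to -0.0408, its distal minus proximal difference from -0.0888 to -0.0147, and that between protocols at p20 from 0.0515 to 0.0714.

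With 2 lines a group, the spread is weakly estimated. Single 10 kb windows rest on few reads, so no window was tested. The deposited windows allow no check of read mapping or duplicates, and blacklisted regions were not used here.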
